A study of Mus musculus with 33 samples.

Results

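The 9 genes described here are regulators and products of the endoderm: the forkhead factors Foxa1 and Foxa2, the HMG-box factor Sox17, the zinc-finger factors Gata4 and Gata6, the nuclear receptor Hnf4a, and the secreted proteins alpha-fetoprotein (Afp), transthyretin (Ttr) and apolipoprotein A-I (Apoa1). They were chosen by name, and each was found by its symbol among the 17120 genes of the count table. The cultures were not directed to endoderm. Mouse embryonic stem cells (mESCs) from blastocysts carrying ScxGFP, a green fluorescent reporter of the tendon gene Scx, were grown as embryoid bodies with the BMP inhibitor LDN-193189, and then brought to paraxial mesoderm (PM) with LDN-193189 and the Wnt agonist CHIR. PM was collected at day 6 (D6), which the labels count as D0 of induction. From D6 the cells were grown in serum-free medium with TGFβ1, FGF2 and SAG, an agonist of the hedgehog pathway, plus either CD1530, an agonist selective for retinoic acid receptor gamma, or AGN 193109 (AGN), which as an inverse agonist lowers the activity of retinoic acid receptors. After 0.25, 0.75, 1.5, 2.5 and 4 days of induction, called D6.25 to D10 here, libraries were made from both conditions. There were 3 libraries in each of the 11 groups, 33 in all. The methods also describe a PM step with AGN 193109 or all-trans retinoic acid, and the labels, which give PM no ligand, do not say whether it was used for these cultures. PM and the induced groups differ in medium and day together, and may differ in the form of culture, and these cannot be told apart. No group had cells with neither ligand after D6, so a difference between CD1530 and AGN cannot be assigned to one of them.

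Endoderm is the germ layer that forms the lining of the gut and organs such as liver, lung and pancreas. Foxa factors open closed chromatin at endoderm genes, Sox17 acts early in definitive endoderm, Gata4 and Gata6 act in endoderm and also in heart, and Hnf4a is a regulator of liver and visceral endoderm genes, among them those of plasma proteins such as Afp, Ttr and Apoa1. None of the regulators is limited to endoderm: Foxa2 is also made in the node, notochord and floor plate, Foxa1 in floor plate, and Sox17 in arterial endothelium. In these bulk cultures, more cells of a type and more RNA per cell cannot be told apart.

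Library totals ran from 17.1 M to 22.8 M counts in 32 libraries, and replicate 1 of AGN at D8.5 had 38.1 M. Levels are given in CPM, the counts of a gene per 1 M counts of the library, with totals scaled by TMM, a correction for differences in RNA composition between libraries. A group was taken as at the counting floor where each of its libraries had at most 3 counts of a gene, and a fold against it is then given as a bound. The PM label was checked against 6 genes of paraxial mesoderm. Tbx6 and Msgn1, which mark its early, presomitic part, had their highest group means in PM (9.56 and 3.38 CPM), whereas Meox1 and Foxc2, which mark somites and sclerotome, rose from 5.91 and 5.35 CPM in PM to 32.9 and 35.8 CPM in CD1530 at D6.25. The summed level of the 6 genes was lowest in PM, at 40.5 to 45 CPM, so the sum does not mark PM. At D6.25 it was 95.8 to 98.9 CPM with CD1530 and 76.4 to 81.7 CPM with AGN. PM held the 9 endoderm genes at a summed 6.84 to 8.52 CPM per library.

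The stretches of DNA just before the start of 3 of the genes are shown, those of Foxa2 and Apoa1 because these genes differed between the ligands in opposite directions at D6.75 and D7.5, and that of Afp because it peaked at a later day than the other products. They come from RefSeq on GRCm38.p6, in the direction of the gene, and none extends into the transcribed gene. For Apoa1 the stretch ends after 200 bases, since GENCODE starts the gene upstream of the RefSeq start. Capitals mark the letters TATAAA (the TATA box), 1 of the motifs that were searched for.
Foxa2, minus strand, chr2:148046970-148047219: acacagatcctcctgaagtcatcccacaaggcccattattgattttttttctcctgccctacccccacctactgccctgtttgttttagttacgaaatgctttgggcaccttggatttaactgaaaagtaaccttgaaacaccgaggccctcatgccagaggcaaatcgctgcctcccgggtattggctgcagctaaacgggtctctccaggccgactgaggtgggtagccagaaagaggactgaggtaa
Apoa1, plus strand, chr9:46228380-46228579: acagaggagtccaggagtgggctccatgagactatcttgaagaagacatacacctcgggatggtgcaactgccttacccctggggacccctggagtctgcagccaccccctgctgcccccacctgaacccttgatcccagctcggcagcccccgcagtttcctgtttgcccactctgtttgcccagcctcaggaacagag
Afp, plus strand, chr5:90490464-90490713: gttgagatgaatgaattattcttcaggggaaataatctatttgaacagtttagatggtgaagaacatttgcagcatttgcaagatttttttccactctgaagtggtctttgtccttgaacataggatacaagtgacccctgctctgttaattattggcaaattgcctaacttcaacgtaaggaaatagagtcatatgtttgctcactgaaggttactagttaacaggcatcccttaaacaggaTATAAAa

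RefSeq gave such a window, of 250 bases before the RefSeq start, for 5 of the 9 genes (Foxa1, Foxa2, Hnf4a, Afp and Apoa1). The RefSeq start was that of GENCODE for Foxa2, 23 bases upstream of it for Afp, and 50, 49 and 805 bases downstream of it for Apoa1, Hnf4a and Foxa1, so the Foxa1 window lies within the GENCODE gene. Both strands of the whole window were searched for 4 motifs. The forkhead letters bound by FOXA proteins were written as TGTTTAC, and the letters preferred by GATA factors as AGATAA. A half-site of nuclear receptors was written as AGGTCA, and the TATA box as TATAAA. The FOXA letters were found once in the Foxa1 window, beginning 141 bases before the RefSeq start, and in 3.16% of 32817 RefSeq promoters. The GATA letters were found once in the Hnf4a window, beginning 52 bases before the RefSeq start and running across the GENCODE start, and in 9.99% of all promoters. In Afp the TATA box began 7 bases before the RefSeq start, as did 12.4% of all promoters somewhere in the window. The windows of Foxa2 and Apoa1 held none of the 4 motifs, nor did any of the 5 windows hold the nuclear receptor half-site, which was in 14% of all promoters. A match describes the letters of the window and is not a binding site.

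At the first collection after PM, D6.25, the 6 regulators were all above PM in both conditions, and they had fallen again by D7.5. At D6.25, 8 of the 9 genes were higher than in PM with CD1530 and 7 of 9 with AGN, where 34.5% and 35% of all genes were higher (adjusted p under 0.05, edgeR's quasi-likelihood F test with Benjamini-Hochberg adjustment over 17120 genes). The genes that did not pass were Afp in both and Ttr with AGN. The median log2 fold change of the 9 genes was 3.86 with CD1530 and 3.76 with AGN, against 0 and 0.0037 over all genes. With genes at the counting floor in PM set to their bound these medians were 3.64 and, over the 8 genes that then have a fold with AGN, 4.14. At D6.75 and D7.5 all 9 genes were higher than in PM in both conditions, where 38.3% and 39.8% of all genes were with CD1530 and 39% and 37.3% with AGN. The call of Afp in CD1530 at D6.75 (adjusted p = 0.0115) was lost without PM replicate 3 (0.0639) or CD1530 at D6.75 replicate 1 (0.0571). By D10 the number had dropped to 5 with CD1530 and 4 with AGN, against 43.3% and 41.6% of all genes, and 1 gene, Hnf4a, was below PM with AGN, as were 40.4% of all genes. All 10 comparisons with PM share the same 3 PM libraries. The group with the highest mean level lay at D6.25 for 2 of the 9 genes, at D6.75 for 5, at D7.5 for 1 and at D10 for 1, while among all genes 9.84%, 7.97%, 5.91% and 35.1% were highest at these days.

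**Figure D1:**
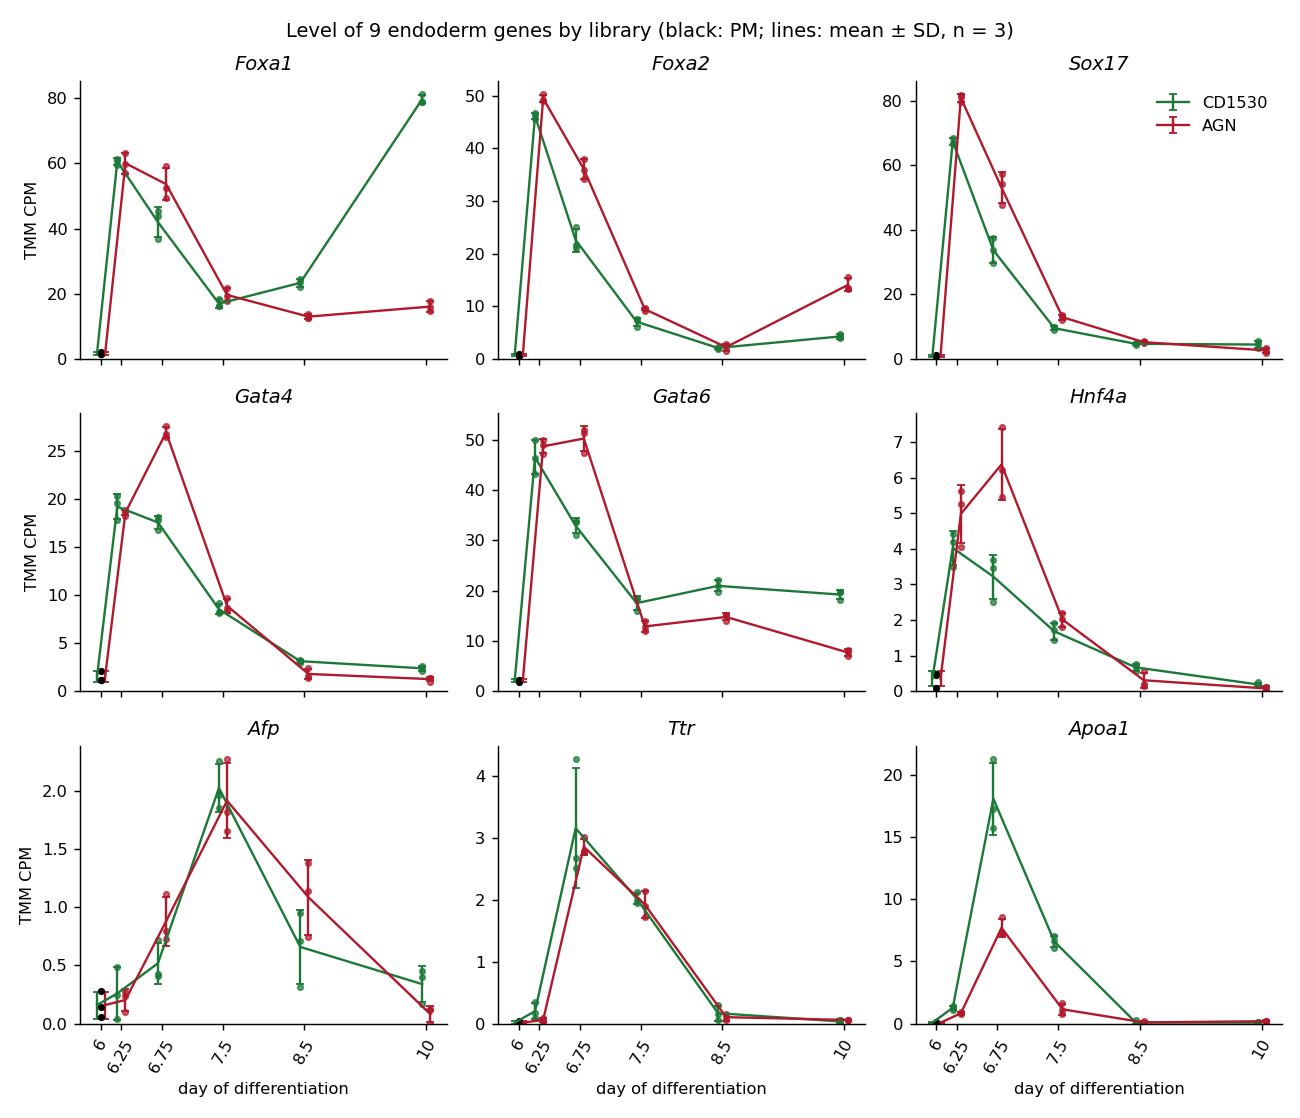
TMM CPM (vertical axis, from 0, a scale of its own for each gene) against day of differentiation, with a point for each library, black for PM, green for CD1530 and red for AGN, and lines through the mean of 3 libraries with bars of 1 SD. The regulators were highest at D6.25 or D6.75 except for Foxa1, which reached 79.7 CPM in CD1530 at D10, and the secreted products were highest at D6.75 or D7.5.

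Foxa1 (ENSMUSG00000035451, chr12:57540628-57546916) opens chromatin for other factors and acts with Foxa2 in endoderm. In PM its 3 libraries held 2.06, 1.42 and 1.51 CPM. At D6.25 they held 60.8, 61.5 and 59.5 CPM with CD1530, and 63.3, 57.0 and 59.9 CPM with AGN. The conditions overlapped at this time and both stood far above PM, with log2 fold changes of 5.18 ± 0.12 (SE) and 5.17 ± 0.12. Foxa1 then fell in both, to 16.2, 16.2 and 18.5 CPM with CD1530 and 17.9, 21.8 and 19.2 CPM with AGN at D7.5. From there the conditions parted. With CD1530 it rose to 23.5, 24.5 and 22.1 CPM at D8.5 and to 79.0, 81.2 and 78.9 CPM at D10, the highest level of Foxa1 in the series, whereas with AGN it was 12.6, 12.5 and 13.9 CPM at D8.5 and 17.8, 14.6 and 15.9 CPM at D10. The late rise thus brought CD1530 above its own early peak, and the libraries of the ligands did not overlap at either time. The step from D8.5 to D10 was 1.77 ± 0.08 (adjusted p = 1.74e-22) with CD1530 and 0.31 ± 0.10 (adjusted p = 0.0045) with AGN. The AGN step was not called without AGN at D10 replicate 1 (0.24, adjusted p = 0.0577).

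Between the ligands, Foxa1 was lower with CD1530 at D6.75 (log2 fold change -0.35 ± 0.07, adjusted p = 2.52e-04), where its libraries held 36.7, 43.8 and 45.4 CPM against 52.3, 49.4 and 59.1 CPM with AGN. This call was lost when only the 2 groups compared were fitted (adjusted p = 0.0573). At D7.5 the difference was -0.21 ± 0.09 and not called (adjusted p = 0.07). It was called without CD1530 at D7.5 replicate 3 (adjusted p = 0.0336) or AGN at D7.5 replicate 1 (0.0346), with library size only (0.0472) and when only the 2 groups compared were fitted (0.0277). At D8.5 the sign was the opposite, with 0.85 ± 0.09 (adjusted p = 1.52e-10), and at D10 Foxa1 was 4.96-fold higher with CD1530 (2.31 ± 0.08, adjusted p = 1.5e-25). No left-out library changed the calls at D6.75, D8.5 or D10.

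Foxa2 (ENSMUSG00000037025, chr2:148042877-148046969), whose upstream DNA is shown above, is needed for endoderm, node and notochord. It held 0.48, 0.85 and 0.86 CPM in PM. At D6.25 it held 46.3, 45.5 and 46.6 CPM with CD1530 and 49.0, 50.3 and 49.2 CPM with AGN, which is its highest level in either condition. The rise over PM was 63-fold with CD1530 and 67.6-fold with AGN. It fell at each of the next 3 steps in both conditions, and at D8.5 the ligands overlapped, with 2.1, 2.3 and 1.9 CPM against 2.9, 2.3 and 1.6 CPM. By D10 it had risen again, to 4.0, 4.1 and 4.7 CPM with CD1530 and 13.3, 15.5 and 13.5 CPM with AGN. The last step was 1.02 ± 0.17 (adjusted p = 2.06e-06) with CD1530 and 2.56 ± 0.12 (adjusted p = 5.6e-21) with AGN.

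Foxa2 was lower with CD1530 wherever the ligands differed. At D6.75 its libraries held 25.1, 21.6 and 21.04 CPM with CD1530 and 38.02, 35.9 and 34.2 CPM with AGN (log2 fold change -0.68 ± 0.08, adjusted p = 5e-09). At D7.5 the difference was -0.41 ± 0.11 (adjusted p = 0.00339) and at D10 -1.72 ± 0.12 (adjusted p = 5.72e-16). At D6.25 (-0.10 ± 0.07, adjusted p = 0.655) and D8.5 (-0.17 ± 0.18, adjusted p = 0.479) it did not pass the test. At D10 Foxa1 and Foxa2 thus differed between the ligands in opposite directions, as the plot of ligand differences shows.

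Sox17 (ENSMUSG00000025902, chr1:4490931-4497354), an early regulator of definitive endoderm that is also made in endothelium, had 0.86, 0.80 and 1.24 CPM in PM. At D6.25 it had 66.7, 68.7 and 67.0 CPM with CD1530 and 79.7, 81.9 and 81.3 CPM with AGN, the highest of its group means. It then fell in both, to 37.6, 33.8 and 29.7 CPM against 54.1, 47.8 and 57.5 CPM at D6.75, and to 8.87, 9.96 and 9.84 CPM against 13.7, 12.1 and 13.0 CPM at D7.5. Up to D7.5 every AGN library was above every CD1530 library. At D8.5 the conditions overlapped, and at D10 Sox17 had 4.65, 5.45 and 3.37 CPM with CD1530 and 2.63, 3.49 and 1.90 CPM with AGN, still overlapping. The log2 fold change was -0.66 ± 0.08 at D6.75 (adjusted p = 1.8e-08), -0.43 ± 0.11 at D7.5 (adjusted p = 0.00215) and 0.75 ± 0.18 at D10 (adjusted p = 7.23e-04), so its sign at D10 was opposite to that at the earlier times. The smaller difference at D6.25 (-0.26 ± 0.07, adjusted p = 0.0458) was lost without any 1 of its 6 libraries, with an adjusted p of 0.17 without CD1530 replicate 1, 0.0949 without replicate 2 and 0.158 without replicate 3, and of 0.117, 0.165 and 0.158 without AGN replicates 1, 2 and 3. The gene shares 804 bases of exon with Gm37587 on the opposite strand, and whether reads were counted by strand is not stated.

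Gata4 (ENSMUSG00000021944, chr14:63198922-63271692) and Gata6 (ENSMUSG00000005836, chromosome 18) are zinc-finger factors of endoderm and heart. Gata4 had 2.15, 1.23 and 1.19 CPM in PM, and at D6.25 17.8, 20.3 and 19.5 CPM with CD1530 and 18.8, 18.2 and 18.7 CPM with AGN, where the libraries overlapped. At D6.75 it was 17.8, 16.7 and 18.1 CPM with CD1530, and had risen to 26.7, 26.4 and 27.5 CPM with AGN, its highest level. Between D6.25 and D6.75 AGN thus gave a further rise (0.53 ± 0.09, adjusted p = 2.04e-06) where the change with CD1530 was -0.13 ± 0.09 (adjusted p = 0.231). It then fell in both, and by D10 was at 2.12, 2.64 and 2.42 CPM with CD1530 and 1.00, 1.39 and 1.43 CPM with AGN, and both overlapped PM. Against PM at D10 it still passed the test as higher with CD1530 (0.64 ± 0.20, adjusted p = 0.00326), and did not pass with AGN (-0.27 ± 0.23, adjusted p = 0.292). Gata4 was lower with CD1530 at D6.75 (log2 fold change -0.62 ± 0.09, adjusted p = 4.01e-07) and higher at D8.5 (0.86 ± 0.17, adjusted p = 9.92e-05) and D10 (0.90 ± 0.22, adjusted p = 5.9e-04).

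Gata6 had 2.25, 2.27 and 1.78 CPM in PM and 43.1, 49.9 and 46.4 CPM with CD1530 and 49.0, 49.8 and 47.1 CPM with AGN at D6.25. At D6.75 CD1530 held 33.5, 31.1 and 33.9 CPM and AGN 51.3, 47.4 and 51.9 CPM. From D7.5 the order was the reverse, with 18.1, 16.0 and 18.5 CPM against 11.9, 12.8 and 13.9 CPM. At D10 the libraries held 19.7, 19.8 and 18.2 CPM with CD1530 and 7.82, 8.31 and 7.01 CPM with AGN. Gata6 thus kept a level with CD1530 that Gata4 did not, at 38.3% of its highest group mean at D10 against 8.9% for Gata4. The log2 fold change between ligands was -0.61 ± 0.06 at D6.75 (adjusted p = 3.6e-10), 0.44 ± 0.08 at D7.5 (adjusted p = 2.37e-05), 0.50 ± 0.07 at D8.5 (adjusted p = 6.4e-07) and 1.32 ± 0.09 at D10 (adjusted p = 3.99e-16). No left-out library changed these calls. It shares 93 bases of exon with 1010001N08Rik on the opposite strand.

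Hnf4a (ENSMUSG00000017950, chr2:163506808-163572910), the nuclear receptor that acts on plasma protein genes, stayed at a few CPM. It had 0.48, 0.47 and 0.11 CPM in PM, 4.40, 4.18 and 3.49 CPM with CD1530 and 5.26, 4.05 and 5.63 CPM with AGN at D6.25, and 2.52, 3.68 and 3.46 CPM against 5.46, 6.22 and 7.43 CPM at D6.75. At D6.75 it was lower with CD1530 (log2 fold change -0.97 ± 0.18, adjusted p = 7.24e-05), and at D7.5 the ligands overlapped, with 1.91, 1.72 and 1.43 CPM against 2.21, 1.81 and 2.02 CPM. At D8.5 it had 0.67, 0.59 and 0.77 CPM with CD1530 and 0.22, 0.56 and 0.16 CPM with AGN (1.18 ± 0.42, adjusted p = 0.0239). This call was lost without CD1530 replicate 1 (adjusted p = 0.0532) or 3 (0.0797) and without AGN replicate 1 (0.172) or 3 (0.0829). At D10 AGN was at the counting floor, with 2, 0 and 2 counts, against 5, 3 and 3 counts with CD1530, and the ligands did not pass the test (adjusted p = 0.23). In AGN at D10 the mean of Hnf4a was at least 1.94-fold lower than in PM (adjusted p = 0.0072, and 0.0514 without AGN at D10 replicate 2). The libraries of these groups overlapped, since PM replicate 3 had 2 counts.

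Apoa1 (ENSMUSG00000032083, chr9:46228580-46230466), the main protein of high-density lipoprotein and a product of liver, gut and yolk sac, was the 1 gene of the 9 that passed the test as higher with CD1530 at D6.75. It was at the counting floor in PM, with 1, 2 and 2 counts. At D6.25 it had 1.14, 1.42 and 1.28 CPM with CD1530 and 0.82, 0.78 and 0.91 CPM with AGN, which did not overlap but did not pass the test (adjusted p = 0.379). At D6.75 it reached 21.2, 15.7 and 17.2 CPM with CD1530 and 7.22, 8.55 and 7.32 CPM with AGN, at least 121-fold and at least 51.7-fold above PM. At D7.5 CD1530 held 6.64, 6.12 and 7.02 CPM and AGN 1.10, 1.63 and 0.74 CPM. The log2 fold change between the ligands was 1.23 ± 0.13 at D6.75 (adjusted p = 1.71e-09) and 2.49 ± 0.20 at D7.5 (adjusted p = 2.81e-13), which is a 5.63-fold difference, and no left-out library changed either call. At D8.5 and D10 no library of either ligand had more than 5 counts, and the ligands did not pass the test.

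Ttr (ENSMUSG00000061808, chromosome 18), the carrier of thyroxine and retinol-binding protein, had 1, 0 and 0 counts in PM and 1, 1 and 2 counts with AGN at D6.25. With CD1530 at D6.25 it had 7, 4 and 2 counts. At D6.75 it had 4.28, 2.68 and 2.52 CPM with CD1530 and 2.78, 3.01 and 2.79 CPM with AGN, at least 21.2-fold and 19.2-fold above PM, and at D7.5 2.12, 1.99 and 1.95 CPM against 2.15, 1.91 and 1.73 CPM. The ligands overlapped at both times. Ttr was the 1 gene of the 9 that passed the test between ligands at no time point, with log2 fold changes of 0.14 ± 0.21 at D6.75 (adjusted p = 0.711) and 0.07 ± 0.23 at D7.5 (adjusted p = 0.868). The step from D6.75 to D7.5 was -0.64 ± 0.22 with CD1530 (adjusted p = 0.0183) and -0.57 ± 0.22 with AGN (adjusted p = 0.0495). The first was lost without CD1530 at D6.75 replicate 1 (adjusted p = 0.292) and without CD1530 at D7.5 replicate 2 (0.0508) or 3 (0.0609), and the other without any 1 of its 6 libraries (adjusted p from 0.0565 to 0.155). At D8.5 Ttr was back to at most 6 counts in every library.

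Afp (ENSMUSG00000054932, chr5:90490737-90508907), the fetal serum protein of yolk sac and liver, came last and stayed low. Its PM libraries had 3, 6 and 1 counts, and at D6.25 it had 5, 11 and 1 counts with CD1530 and 6, 2 and 5 with AGN. It was highest at D7.5, with 1.96, 1.85 and 2.25 CPM with CD1530 and 1.65, 1.81 and 2.27 CPM with AGN, where the ligands overlapped. The step from D6.75 to D7.5 was a rise in both, by 1.96 ± 0.35 (adjusted p = 1.67e-05) and 1.11 ± 0.32 (adjusted p = 0.00694) with CD1530 and AGN. The 8 genes other than Afp fell at that step in both, as did 15.5% of all genes with CD1530 and 16% with AGN. The calls of Ttr among them were lost without single libraries, as given above. At D10 Afp had 8, 3 and 8 counts with CD1530 and 2, 2 and 0 with AGN, at least 1.86-fold higher with CD1530 (adjusted p = 0.0389). Without CD1530 at D10 replicate 1 or 3 that adjusted p was 0.103 or 0.119, and without AGN at D10 replicate 2 or 3 it was 0.052 or 0.169.

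**Figure D2:**
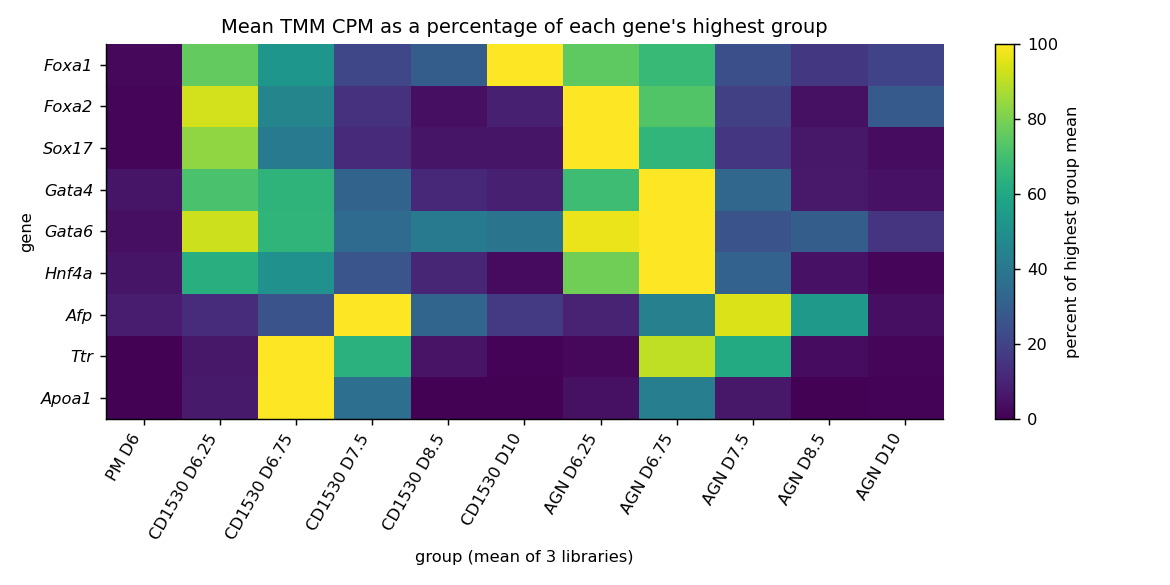
Heat map of the mean TMM CPM of 3 libraries in each of the 11 groups (columns) as a percentage of the gene's highest group mean (rows, one for each of the 9 genes). PM was at 0.462% to 7.93% of the highest group for every gene, and the bright cells move from D6.25 in the upper rows to D6.75 and D7.5 in the lower rows, with Foxa1 in CD1530 at D10 set apart.

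Read per kilobase of exon, which allows genes to be compared, the highest group means were 23.9 CPM per kilobase for Foxa1, 20.9 for Foxa2 and 17 for Sox17. They were 7.72 for Gata6, 6.89 for Gata4 and 1.32 for Hnf4a among the other regulators, and 14.6 for Apoa1, 2.66 for Ttr and 0.6 for Afp among the products. In the order of the 11 group means, neighbouring groups overlapped in 1 of 10 places for Foxa2, in 3 for Sox17 and Gata6, in 4 for Foxa1, in 5 for Gata4, in 6 for Hnf4a and Apoa1, in 7 for Ttr and in 9 for Afp.

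The comparison of the ligands at each time asks where the 2 trajectories separate. At D6.25, 1 of the 9 genes (Sox17) differed, and 1.92% of all genes did. At D6.75, 7 of 9 differed, 6 lower and 1 higher with CD1530, and 18% of all genes did, 10% lower and 7.94% higher. The median log2 fold change was -0.61 over the 9 genes and -0.0071 over all genes. At D7.5, 4 of 9 differed (2 higher, 2 lower) against 26.9% of all genes. At D8.5, 4 of 9 differed, all higher with CD1530, against 40% of all genes, 20.4% being higher. At D10, 6 of 9 differed, 5 higher and 1 lower, against 46.6% of all genes, 22.7% being higher and 24% lower. The median over the 9 genes was 0.48 at D8.5 and 0.90 at D10. At D10 it was 0.82 over the 8 genes with a fold once floor values were set to their bound. Foxa1, Gata4, Gata6 and Hnf4a, which were all lower with CD1530 at D6.75, were the 4 higher at D8.5.

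**Figure D3:**
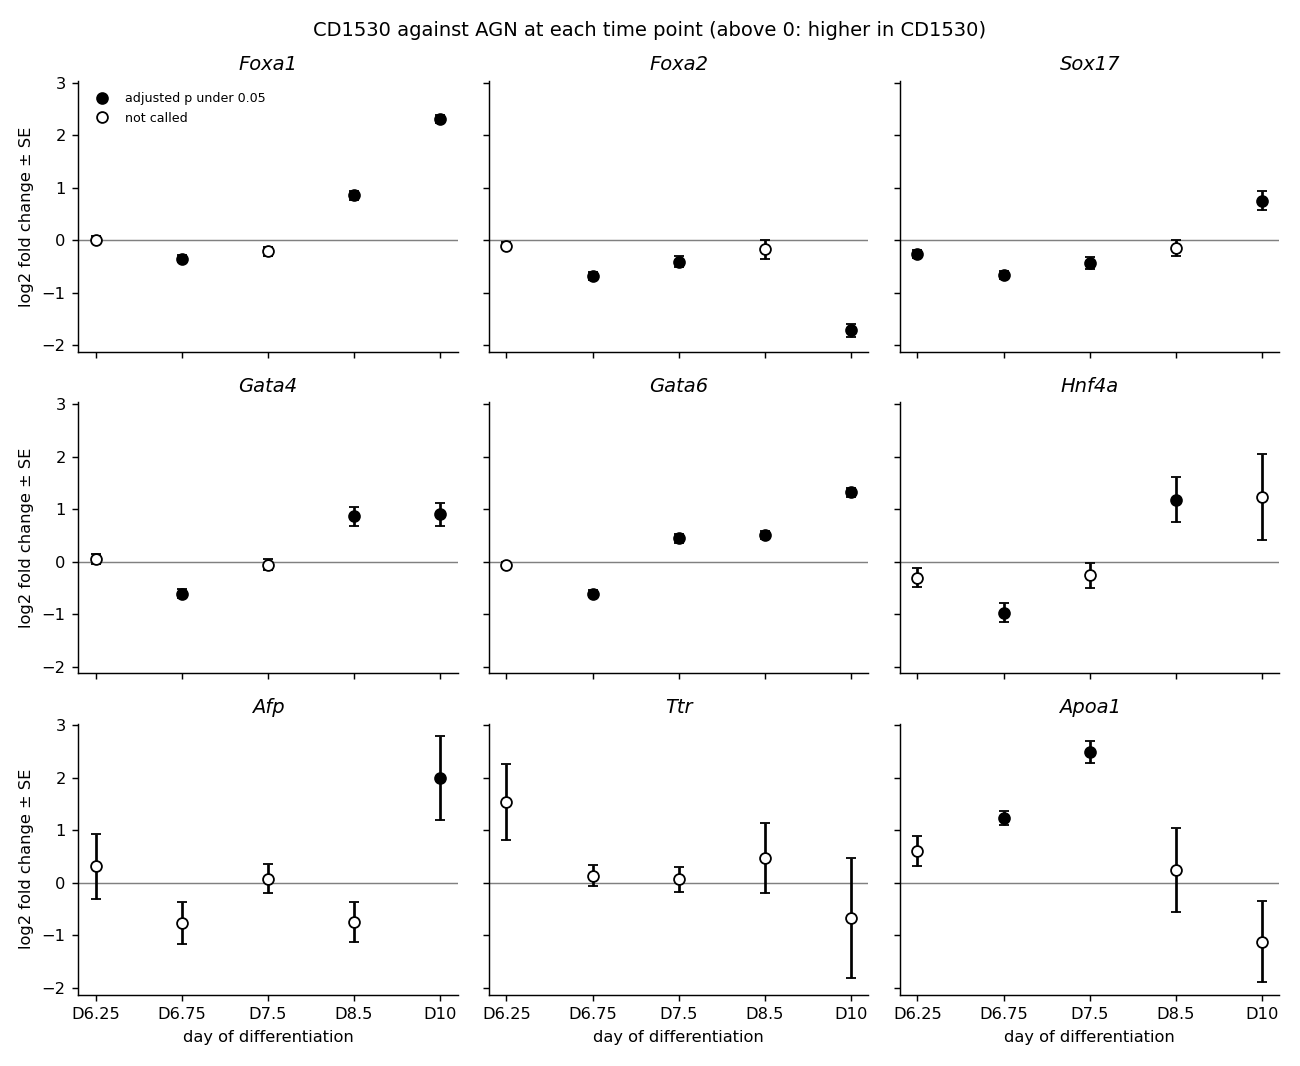
Log2 fold change of CD1530 against AGN (vertical axis, above 0 higher in CD1530, bars of 1 SE) at each of the 5 time points, a panel for each of the 9 genes. Filled points had an adjusted p under 0.05, as in 1 gene at D6.25, 7 genes at D6.75, 4 genes at D7.5 and again at D8.5, and 6 genes at D10, and the filled points of Foxa1, Sox17, Gata4, Gata6 and Hnf4a lie on both sides of 0.

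Whether the difference between the ligands changed over time was tested with an interaction term of 4 degrees of freedom. It passed for 8 of the 9 genes and for 48.8% of all genes. The adjusted p was 9.81e-23 for Foxa1, 1.8e-17 for Gata6, 2.56e-11 for Foxa2 and 1.1e-08 for Gata4. For the products it was 1.27e-05 for Apoa1, 0.0429 for Afp and 0.438 for Ttr.

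Other genes of the same pathway were described as lists. Of 8 early endoderm regulators, 7 were in the comparison, and all 7 were above PM at D6.25 in both conditions, as were 34.5% and 35% of all genes with CD1530 and AGN. Their median log2 fold change was 5.08 with CD1530 and 5.27 with AGN. Lhx1, a homeobox factor of the anterior streak and prechordal plate, went from 1.46 CPM in PM to 110.4 CPM with CD1530 and 134.4 CPM with AGN. Eomes, a T-box factor upstream of definitive endoderm, went from 10.9 to 70.2 and 83.6 CPM. Between the ligands, 6 of 7 were lower with CD1530 at D6.75, as were 10% of all genes, and none was higher, with a median of -0.84. Cer1, a secreted inhibitor of Nodal, BMP and Wnt that marks anterior endoderm, was furthest apart, at 26.9 CPM with CD1530 and 222.1 CPM with AGN (-3.04 ± 0.07, adjusted p = 2.6e-31). At D10, 6 of 7 were lower with CD1530, where 24% of all genes were, with a median of -2.03. These 6 were thus on the same side as Foxa2 at D10, and Foxa1, Sox17, Gata4 and Gata6 on the other.

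Genes of later endoderm gave a mixed picture. Of the 5 gut and liver regulators compared, 2 were above PM at D6.25 in both conditions, Prox1 and Cebpa, and 3 were below, among them Cdx2 and Nr5a2. Of all genes, 34.5% with CD1530 and 35% with AGN were above PM at that time, and 33.3% and 33.1% were below. The 5 genes summed to 168 to 184 CPM in PM, and at D6.25 to 81.2 to 84 CPM with CD1530 and 89.9 to 91.6 CPM with AGN. Prox1, which acts in liver and in lymphatic endothelium, was at 2.14 CPM in PM, 46.5 CPM with CD1530 and 20.95 CPM with AGN at D7.5. At D8.5 all 5 were higher with CD1530, against 20.4% of all genes. Among the 9 other secreted products of liver and yolk sac compared, 7 were above PM at D6.25 with CD1530 and 6 with AGN, and 2 were below in both, Apoa2 and Apoe. The sum of these 9 was lower than in PM, at 1300 to 1390 CPM in PM, 881 to 924 CPM with CD1530 and 912 to 931 CPM with AGN at D6.25. Apob, a lipoprotein component made in liver, gut and yolk sac, went from 0.15 CPM in PM to 3.09 CPM with CD1530 and 1.72 CPM with AGN at D6.75 (between ligands 0.85 ± 0.26, adjusted p = 0.018), whereas Rbp4, the retinol carrier that travels with Ttr, was lower with CD1530 at that time (-0.63 ± 0.18, adjusted p = 0.0091). Of the 8 genes of extraembryonic endoderm, 7 were above PM at D6.25 in both. Ihh reached 2.47 and 2.06 CPM, and Amn, which marks visceral endoderm, remained between 0.42 and 1.35 CPM in all 11 groups. The sum of the 8 genes was 101 to 119 CPM in PM. At D10 it was 1020 to 1050 CPM with CD1530 and 566 to 635 CPM with AGN. Between the ligands at D10, 3 of the 8 passed the test, against 46.6% of all genes. Of these, 2 were higher and 1 lower with CD1530, as were 22.7% and 24% of all genes. The median log2 fold change of the 8 was 0.36, and 0.13 with floor values set to their bound. At that time 6 of the 8 were above PM in both, as were 43.3% and 41.6% of all genes with CD1530 and AGN. Of the 86 genes listed in all, 10 were not analysed here, among them Alb and Hhex.

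Of 7 epithelial genes, 5 were above PM at D6.25 in both conditions, the keratins Krt8, Krt18 and Krt19 and the claudins Cldn6 and Cldn7, and 2 were below, the adhesion genes Epcam (log2 fold change -0.52 ± 0.04 with CD1530 and -0.36 ± 0.04 with AGN) and Cdh1 (-0.59 ± 0.04 and -0.42 ± 0.04). Of all genes, 34.5% with CD1530 and 35% with AGN were above PM at D6.25, and 33.3% and 33.1% were below. The summed level of the 7 epithelial genes was 947 to 977 CPM in PM, 1390 to 1410 CPM with CD1530 and 1480 to 1510 CPM with AGN at D6.25, and 981 to 1050 against 1550 to 1600 CPM at D6.75. Krt8 went from 98.2 CPM in PM to 389.2 and 408.6 CPM at D6.25. At D6.75, 6 of the 7 were lower with CD1530, where 10% of all genes were, and none was higher. At D10 Krt8, Krt18 and Krt19 were higher with CD1530 and Epcam, Cdh1, Cldn6 and Cldn7 lower.

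Markers of other cell types that make some of the 9 genes also moved. Endothelial genes, 10 in all, summed to 129 to 137 CPM in PM and 370 to 422 CPM with CD1530 and 388 to 390 CPM with AGN at D6.25, when Sox17 was highest. Cdh5, the endothelial cadherin, went from 2.50 to 66.1 and 63.8 CPM. At D6.75 8 of the 10 were higher with CD1530, against 7.94% of all genes, and 1, Flt1, was lower, while Sox17 was lower with CD1530. From D6.75 to D7.5 the sum went from 552 to 625 CPM to 561 to 587 CPM with CD1530 and from 479 to 495 CPM to 357 to 392 CPM with AGN, while Sox17 fell in both. The part of endothelial cells in the level of Sox17 was not tested. Genes of heart and lateral mesoderm, 9 compared, summed to 6.65 to 7.84 CPM in PM, and at D6.25 to 13.3 to 14.4 CPM with CD1530 and 13.8 to 15.3 CPM with AGN. Of the 9, 4 with CD1530 and 6 with AGN were above PM, as were 34.5% and 35% of all genes. In each condition 1 was below, as were 33.3% and 33.1% of all genes. The sum was highest in AGN at D6.75, at 14.7 to 17.6 CPM against 9.34 to 11.8 CPM with CD1530. Its range overlapped those of AGN at D6.25 and CD1530 at D10. Between the ligands at D6.75, 1 of the 9 passed the test, lower with CD1530, as did 10% of all genes. The median log2 fold change of the 9 was -0.09. AGN at D6.75 was also the group with the highest mean of Gata4 and of Gata6, although for Gata6 it overlapped AGN at D6.25. Nkx2-5, a defining cardiac factor, was at most 0.94 CPM in any group mean, and the part of these cells in the levels of Gata4 and Gata6 was not tested.

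**Figure D4:**
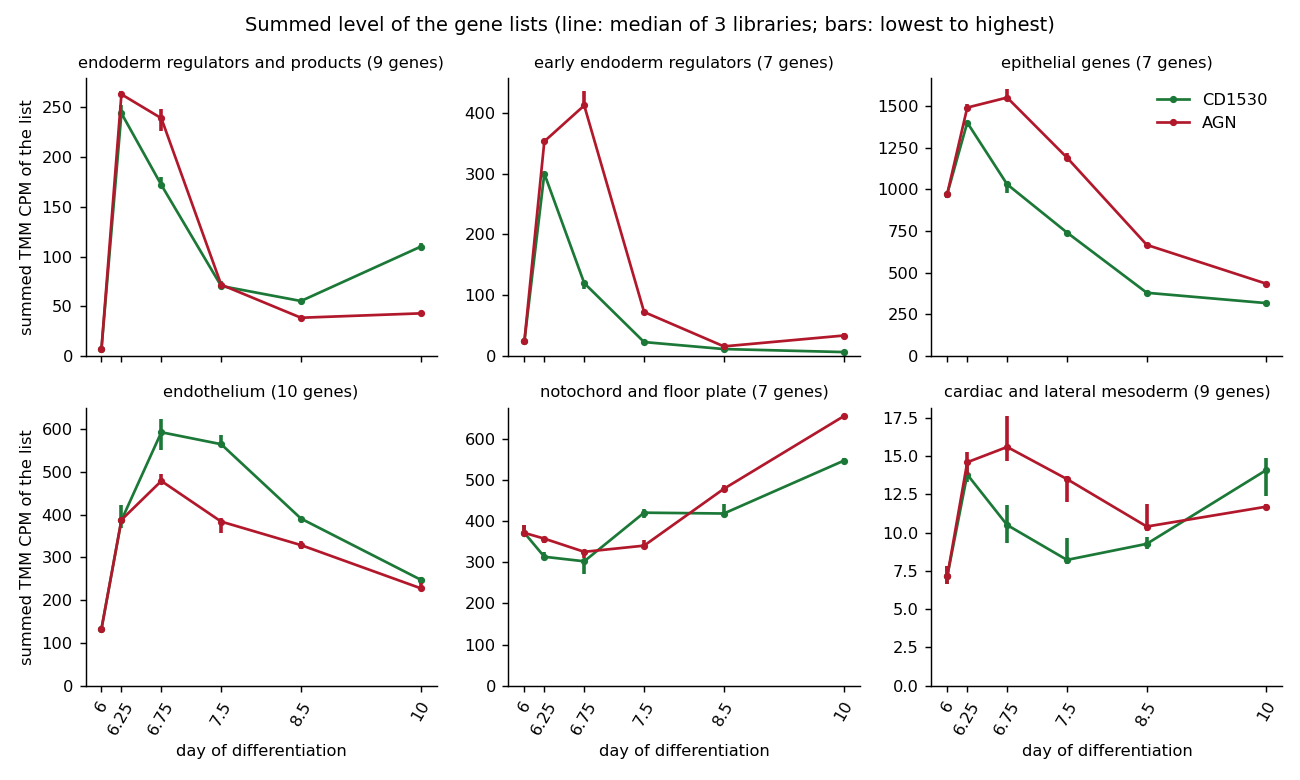
Summed TMM CPM of the genes of 6 lists (vertical axis from 0, a scale of its own for each list) against day of differentiation, with lines through the median of 3 libraries and bars from the lowest to the highest library, green for CD1530 and red for AGN. The early endoderm regulators reached 412 to 435 CPM with AGN and 111 to 123 CPM with CD1530 at D6.75, while the endothelial sum was higher with CD1530 at that time. The sum of the early endoderm regulators includes Cer1, which was furthest apart, and the median log2 fold change of the 7 genes was -0.84.

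At D10 genes of the node, notochord and floor plate differed between the ligands along with the Foxa genes, and all 7 passed the test, as did 46.6% of all genes. Lower with CD1530 were T (0.50 against 27.1 CPM), a T-box factor of streak and notochord, Foxj1 (1.73 against 25.3 CPM), a regulator of motile cilia found in the node, Noto, a node and notochord homeobox gene with no count in any CD1530 library at D10 and 2.33 CPM with AGN, Shh (1.78 against 2.98 CPM) and Ntn1. Foxa2 was lower with CD1530 too. Among those higher with CD1530 was Spon1 (168 against 49.6 CPM), which is made in floor plate, and Foxa1 was higher too. In the earlier rise of D6.25, Shh went from 0.80 CPM in PM to 8.73 and 7.66 CPM and Foxj1 from 2.24 to 12.9 and 15.7 CPM, and T fell from 79.0 to 54.9 and 60.3 CPM. The part of these cell types in the levels of Foxa1 and Foxa2 was not tested.

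The genes whose pattern over the 11 group means was most like that of each of the 9 were found by Pearson correlation of log2(CPM + 0.5) among 14423 genes. These coefficients describe 11 means that share the PM group, and carry no test. Gata4 and Hnf4a were each other's nearest gene (r = 0.987), and Hkdc1 was the second nearest of both (0.98 and 0.982). The third nearest of Gata4 was Ambp (0.976), a plasma protein precursor of liver, and that of Hnf4a was Spink1 (0.979). Foxa1 was nearest to Sphk1 (0.991), Foxa2 to Lgr5 (0.963), Sox17 to Pcbd1 (0.99), and Gata6 to Gfpt2 (0.98). Of the products, Afp was nearest to Chrna7 (0.953), Ttr to Atxn7l1 (0.956) and Apoa1 to Hpgd (0.921). Among the 9 genes themselves, Foxa1 and Foxa2 correlated at 0.719, Foxa1 and Gata6 at 0.9, Ttr and Apoa1 at 0.898, and Afp with Foxa1 and Foxa2 at -0.0197 and -0.124. By rank correlation none of the 3 nearest genes was kept for 7 of the 9 genes, while 2 were kept for Foxa2 and 1 for Gata6. With log2(CPM + 1), 1 was kept for Apoa1, 2 each for Gata4 and Ttr, and all 3 for the rest.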

How the data were processed

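RNA was measured in 33 libraries of 11 groups, 3 each, which the methods call biological replicates; which mESC line gave which replicate is not stated. Per the labels and the methods, the authors aligned paired reads with STAR to GRCm38 and assigned them to genes with featureCounts. Not stated are the annotation, whether strand was used and how multi-mapping reads were treated. The deposited values are raw counts per gene, which the authors had filtered on low counts. The authors used edgeR for their own comparisons.

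Tests were run with edgeR 4.0.16 under R 4.3.3. All 33 libraries entered 1 group-means model without covariates, with TMM normalization and the robust quasi-likelihood F test. Benjamini-Hochberg adjustment ran over 17120 genes within each contrast, at a threshold of 0.05. There were 5 contrasts between ligands, 10 against PM, 8 between successive times and 1 for the interaction. edgeR's filter on low counts removed 0 genes. The SE of a log2 fold change was taken from it and its F value. Total counts ran from 17116084 to 38120841, with a median of 19899242. The counting floor, at most 3 counts in each library, covers counting error only, since PCR copies are not independent molecules. No replicate columns were identical, and each of 33 replicate pairs differed by more than sampling noise (chi-square per gene at least 1.57). Gene positions and exon lengths came from GENCODE M21, which matched all 17120 identifiers. The code was tested on simulated data, and Python 3.11.15 was used for sequences and plots.

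The 9 genes, the 10 lists beside them (early endoderm regulators, gut and liver regulators, extraembryonic endoderm, secreted liver and yolk sac products, epithelial genes, notochord and floor plate, cardiac and lateral mesoderm, endothelium, paraxial mesoderm, and tendon and fibrocartilage) and the tests were chosen with earlier results of these data known. Some genes of the lists enter the counts and sums only and are not reported here by name. All 9 genes are described, list genes where they passed the test or define the list, and otherwise the nearest genes by pattern, with predicted genes left out and a highest group mean of at least 1 CPM. Of the tendon and fibrocartilage list, Scx rose from 6.41 CPM in PM to 857.6 CPM with CD1530 and 1223 CPM with AGN at D10, and Acan was 4.67 against 215.1 CPM. Alternatives were each library left out in turn, the replicate number as a block, the compared groups alone, DESeq2 1.42.0, edgeR's likelihood ratio test or a fit that is not robust, DESeq2 size factors or library size only in place of TMM, and genes kept from 1 CPM in 3 libraries.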

Additional observations from a re-analysis of the deposited data

Results flagged for a closer look

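For 8 of the 9 genes the difference between CD1530 and AGN itself differed between the time points, by edgeR's interaction test with 4 degrees of freedom. The adjusted p was 9.81e-23 for Foxa1, 1.8e-17 for Gata6, 2.56e-11 for Foxa2, 1.1e-08 for Gata4, 3e-06 for Sox17, 1.27e-05 for Apoa1, 8.52e-04 for Hnf4a and 0.0429 for Afp. Of all genes, 48.8% passed this test. For Foxa1, Sox17, Gata4, Gata6 and Hnf4a the called differences had both signs. Foxa2 was lower with CD1530 at each of its 3 called time points (D6.75, D7.5 and D10), and Apoa1 was higher with CD1530 at both of its called time points. The call of Afp was lost without any 1 of 17 libraries, with an adjusted p from 0.0501 to 0.112. With CD1530 these were replicates 2 and 3 of D6.75, replicates 1 and 3 of D7.5, replicates 2 and 3 of D8.5 and replicates 1 and 3 of D10. With AGN they were replicate 2 of D6.25, replicate 2 of D6.75, replicates 1 and 2 of D7.5, replicates 1 and 2 of D8.5 and all 3 replicates of D10. For the other 7 genes no left-out library ended the call.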

How the results depend on the processing

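Of the 24 numbers of genes passing a test, 22 stayed within 1.5 times of their value under every alternative. At D6.25 the number that differed between the ligands was 1 (Sox17), and was 0 with library size only, with a fit that is not robust, with the replicate block, and without any 1 of the 6 libraries (0 to 0). For the step from D8.5 to D10 with CD1530 it was 3, and 6 with library size only, 5 with a fit that is not robust and 5 with the likelihood ratio test. The cause was not tested. Differences that did not pass and turned sign when 1 library was left out ranged, on the log2 scale, from -0.56 to 0.84 for Afp and -0.024 to 0.053 for Foxa1 at D6.25, from -0.14 to 0.28 for Ttr at D6.75, from -0.0096 to 0.22 for Afp, -0.11 to 0.0065 for Gata4 and -0.0028 to 0.15 for Ttr at D7.5, and from -0.33 to 0.11 for Foxa2, -0.12 to 1.05 for Ttr and -1.51 to 1.00 for Apoa1 at D8.5. No difference turned sign under another setting. Calls of the 9 genes between adjacent times that were lost under some alternative, beside those given with their genes above, were Foxa1 with AGN from D6.25 to D6.75 (adjusted p up to 0.265, without AGN at D6.75 replicate 2), Gata6 from D7.5 to D8.5 with AGN (up to 0.257, with library size only) and with CD1530 (0.0615, without CD1530 at D7.5 replicate 2), Afp with AGN from D7.5 to D8.5 (up to 0.133, without AGN at D7.5 replicate 3) and Hnf4a with AGN from D8.5 to D10 (up to 0.19, without AGN at D8.5 replicate 2). Against PM, the call of Ttr at D8.5 was lost with AGN (up to 0.188, without AGN at D8.5 replicate 1) and with CD1530 (0.0718, without CD1530 at D8.5 replicate 3).

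Same-numbered replicates of the ligands did not deviate together over all genes. Across 15 pairs the correlation of their deviations from the group means ran from -0.0542 to 0.0271. Whether same-numbered replicates share a line or a culture is not stated. With the replicate block the adjusted p of Sox17 at D6.25 was 0.0816, of the Afp interaction 0.0553 and of Gata6 with AGN from D7.5 to D8.5 0.0513, and no other call of the 9 genes changed. Ttr and Apoa1 had at most 6 counts in any library at D8.5 and D10, and a difference between the ligands was not detectable there at this depth.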
